A study of Mus musculus with 12 samples.

Results

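The transcripts described here are those of the glutamate and GABA receptor subunits in primary oligodendrocyte progenitor cells of wild-type mice, cultured from brain. Members were taken by gene symbol: AMPA (Gria), kainate (Grik), delta (Grid) and NMDA (Grin) subunits, metabotropic glutamate receptors (Grm), GABA-A subunits (Gabr) and GABA-B subunits (Gabbr), listed in at least 1 library, with antisense symbols left out. They came to 46 of the 18876 genes listed in any library. The same pattern also matched 1 gene that encodes no subunit, which was left out.

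The cells were treated for 12 h and profiled by bulk RNA-seq, with 3 libraries in each of 4 groups. The vehicle group received DMSO, the solvent. The hemin group received 50 µM hemin, the oxidised form of heme that blood releases when it breaks down. The third group received 50 µM hemin with 10 ng/mL interleukin-10 (IL-10), a cytokine that signals through STAT3, and its libraries are called IL-10 replicates. The fourth received the same hemin and IL-10 together with 2.5 µM stattic, a STAT3 inhibitor, and its libraries are called stattic replicates. IL-10 or stattic without hemin was not analysed here. Nothing in the labels shows that replicates are separate animals or cultures. Each p-value therefore reflects the spread of these libraries alone, which could be technical.

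Fast glutamate receptors are ion channels assembled from several subunits. AMPA receptors carry most fast excitation, and the Gria2 subunit makes them nearly impermeable to calcium. Kainate receptors combine low-affinity subunits (Grik1, Grik2, Grik3) with high-affinity ones (Grik4, Grik5), and NMDA receptors pair the obligatory subunit Grin1 with Grin2 or Grin3 subunits. Metabotropic glutamate receptors and the GABA-B receptor signal through G proteins, while GABA-A receptors are chloride channels. Oligodendrocyte progenitor cells carry AMPA and GABA-A receptors and receive synaptic input from neurons, a property that is lost as they mature into myelinating oligodendrocytes.

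RefSeq start-site sequences are printed for 3 of the subunits whose transcripts changed in at least 1 comparison with vehicle: 2 that fell, the kainate subunit Grik3 and the metabotropic receptor Grm3, and the only one that rose, the GABA subunit Gabrr2. Each runs 5′ to 3′ on the gene's own strand, from 250 bases before the start site to 50 bases after it, in build GRCm38.p6. The sources used here do not give the authors' build. Grik3 lies at chr4:125490446-125490745 on the plus strand, Grm3 at chr5:9725303-9725602 on the minus strand and Gabrr2 at chr4:33062862-33063161 on the plus strand. Capitals mark the GC box GGGCGG, read on either strand, in Grik3 and Grm3, and the CCAAT box in Gabrr2.
Grik3: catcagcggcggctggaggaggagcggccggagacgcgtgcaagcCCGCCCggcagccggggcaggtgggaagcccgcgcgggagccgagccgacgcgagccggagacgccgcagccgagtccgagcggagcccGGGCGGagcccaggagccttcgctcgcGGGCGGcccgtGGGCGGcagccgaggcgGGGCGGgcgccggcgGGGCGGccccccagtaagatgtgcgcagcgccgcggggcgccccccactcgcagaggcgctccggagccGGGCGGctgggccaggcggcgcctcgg
Grm3: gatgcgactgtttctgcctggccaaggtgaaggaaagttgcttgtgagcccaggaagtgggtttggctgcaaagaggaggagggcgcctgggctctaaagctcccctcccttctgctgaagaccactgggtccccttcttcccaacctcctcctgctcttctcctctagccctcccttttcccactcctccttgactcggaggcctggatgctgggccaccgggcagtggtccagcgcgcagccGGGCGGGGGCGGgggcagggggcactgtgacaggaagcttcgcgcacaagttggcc
Gabrr2: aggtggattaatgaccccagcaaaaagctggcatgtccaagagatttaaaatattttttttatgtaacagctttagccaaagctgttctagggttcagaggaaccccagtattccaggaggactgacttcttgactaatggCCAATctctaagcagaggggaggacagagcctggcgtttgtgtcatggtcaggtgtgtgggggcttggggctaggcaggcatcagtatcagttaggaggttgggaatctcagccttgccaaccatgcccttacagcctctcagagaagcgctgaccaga
The sequences differ in base composition. The Grik3 window was 82.0% G or C and held 7 GC boxes, the Grm3 window was 63.7% G or C and held 2 GC boxes side by side, and the Gabrr2 window was 49.3% G or C and held 1 CCAAT box and no GC box. The median over all 32851 promoters of the table was 52.7%, and 35.7% of them held a GC box and 37.4% a CCAAT box. None of the 3 held the STAT palindrome TTCNNNGAA, which 8.3% of all promoters hold, the antioxidant response element TGACNNNGC (12.4%), the AP-1 site TGANTCA (7.81%), the cAMP response element TGACGTCA (1.79%) or the NRF1 site (4.6%), each searched on both strands. Grik2, which also fell in 1 comparison, had a window of 64.7% G or C with none of the 7 motifs. Across the 31 subunit genes found in the table, with 38 promoters, the GC box was present in 18 genes, the CCAAT box in 13 and the STAT palindrome in 2, Gabrb1 and Gabrg1. These are matches of letters in a fixed window and not measured binding sites. Gria1, Grin2b, Grin3a and Grm5 were not matched in this table.

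The vehicle libraries held transcripts of every receptor family, with the AMPA subunit Gria2 far above the rest. They are bulk libraries that also held astrocyte marker transcripts, and which cells expressed each subunit was not tested. Levels between genes are compared as FPKM, fragment counts that the authors scaled to transcript length and sequencing depth. Gria2 stood at 64.3 ± 13.8 FPKM (SD, n = 3), rank 1211 among all genes, and its lowest vehicle library (53.6) was above the highest of the next gene, Gabbr1 (43.9). Gabbr1, the ligand-binding GABA-B subunit, stood at 32.8 ± 13.1 FPKM. The kainate subunits Grik5 (27.4 ± 2.14) and Grik3 (26.0 ± 1.97) and the metabotropic receptor Grm5 (24.5 ± 5.93 FPKM) followed, and Gria4, Grid1, Grm3 and Grin3a were among those at 14.7 to 9.94 FPKM. From Gabbr1 down, each gene overlapped the next in the order, so the order below Gria2 is not resolved beyond the spread of 3 libraries. Grin1, without which NMDA receptors do not form, stood at only 3.47 ± 0.156 FPKM, below Grin3a at 9.94 ± 7.15 FPKM. Grm6, Gabrp and Gabrr3 were listed at 0 in vehicle, where a gene is left out of a file below 0.01 FPKM.

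**Figure D1:**
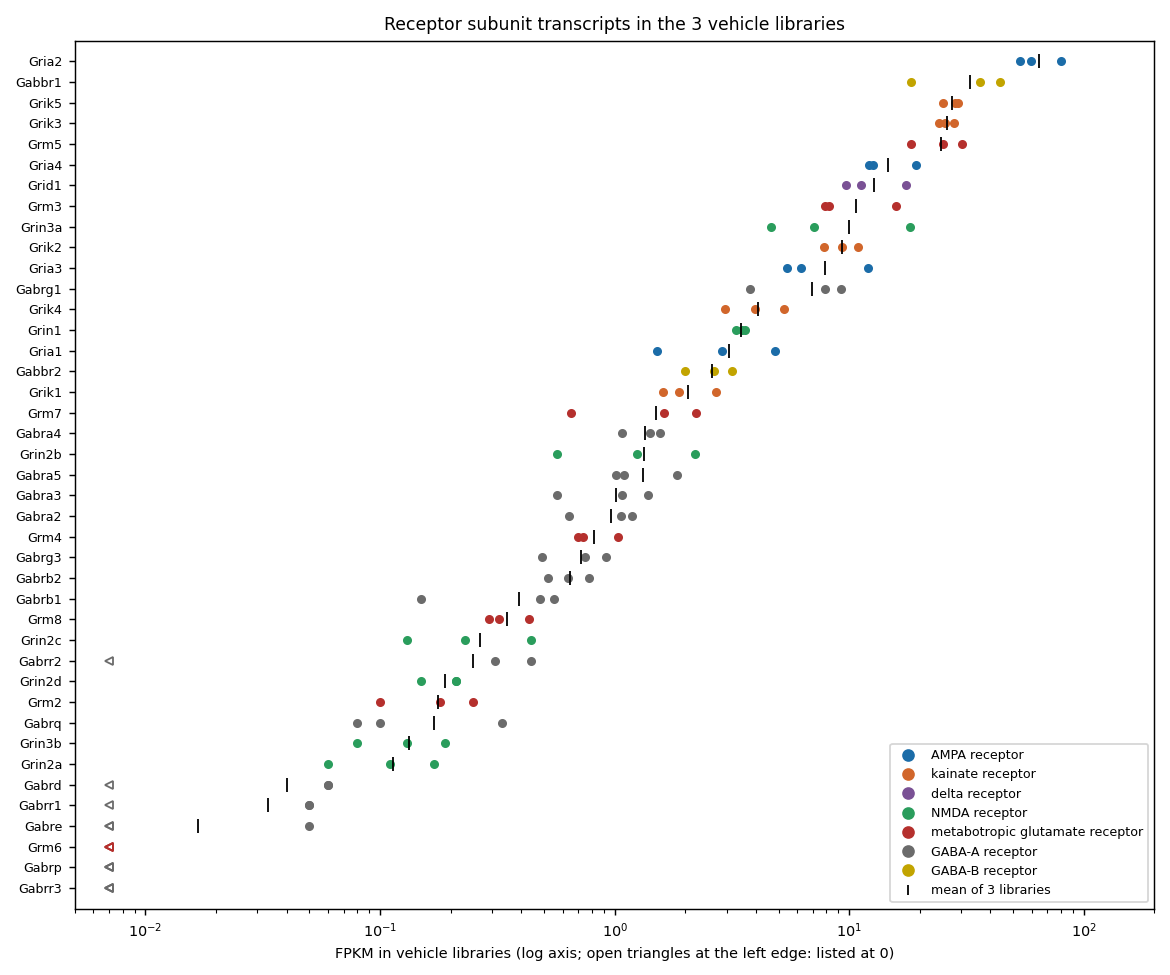
FPKM of 41 subunits in the 3 vehicle libraries on a log axis, ordered by mean and coloured by family. Gria2 stands alone at 53.6 to 79.9 FPKM, and below it each gene's range overlaps that of the next one drawn.

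Hemin changed the level of 2 of the 36 subunits that had enough counts to be tested, and the other hemin-treated groups each changed 5 against vehicle. The NMDA subunit Grin2b fell and the GABA-A rho subunit Gabrr2 rose in all 3 comparisons. With IL-10 present, the AMPA subunit Gria1 and the kainate subunits Grik2 and Grik3 also fell, and with IL-10 and stattic, the NMDA subunit Grin3a and the metabotropic receptors Grm3 and Grm5 also fell. The 3 comparisons share the same vehicle libraries, so their calls do not count as independent repeats. Whether a subunit called in one of them and not in another differs between those groups was tested only through the direct comparisons given later, in which no subunit was called.

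A gene was called at an adjusted p under 0.05 in the edgeR quasi-likelihood test with Benjamini-Hochberg adjustment over all 13967 tested genes. With hemin alone, 1 of the 36 subunits was called lower, beside 9.15% of all tested genes, and 1 was called higher, beside 11.7%. With IL-10 added, 4 were called lower (11.1%), beside 8.81% of all genes, and 1 higher, beside 12.1%. With stattic as well, 4 were called lower (11.1%), beside 10.2%, and 1 higher, beside 14.7%. The shares called lower in the groups with IL-10 were thus near those of all genes. In either direction 5.56% of the subunits were called with hemin, 13.9% with IL-10 and 13.9% with stattic, beside 20.9%, 21.0% and 24.9% of all tested genes. When 1 library was left out, the number called lower ran from 0 to 2 with hemin, 1 to 7 with IL-10 and 0 to 5 with stattic. It was lowest without vehicle replicate 1 in all 3, without hemin replicate 1 in the first and without IL-10 replicate 1 in the second, and it reached 7 without IL-10 replicate 3 or stattic replicate 3. The median log2 change of the 36 subunits was -0.19 with hemin, -0.52 with IL-10 added and -0.42 with stattic as well, against 0.03, 0.0 and 0.1 over all tested genes. The log2 change was below 0 for 19, 27 and 23 of 36 subunits (52.8%, 75.0% and 63.9%), beside 48.4%, 49.8% and 45.2% of all tested genes. Treated and vehicle libraries did not overlap for 10 of the 36 subunits with hemin, beside 50.1% of all tested genes, for 10 with IL-10, beside 49.2%, and for 7 with stattic, beside 41.1%.

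**Figure D2:**
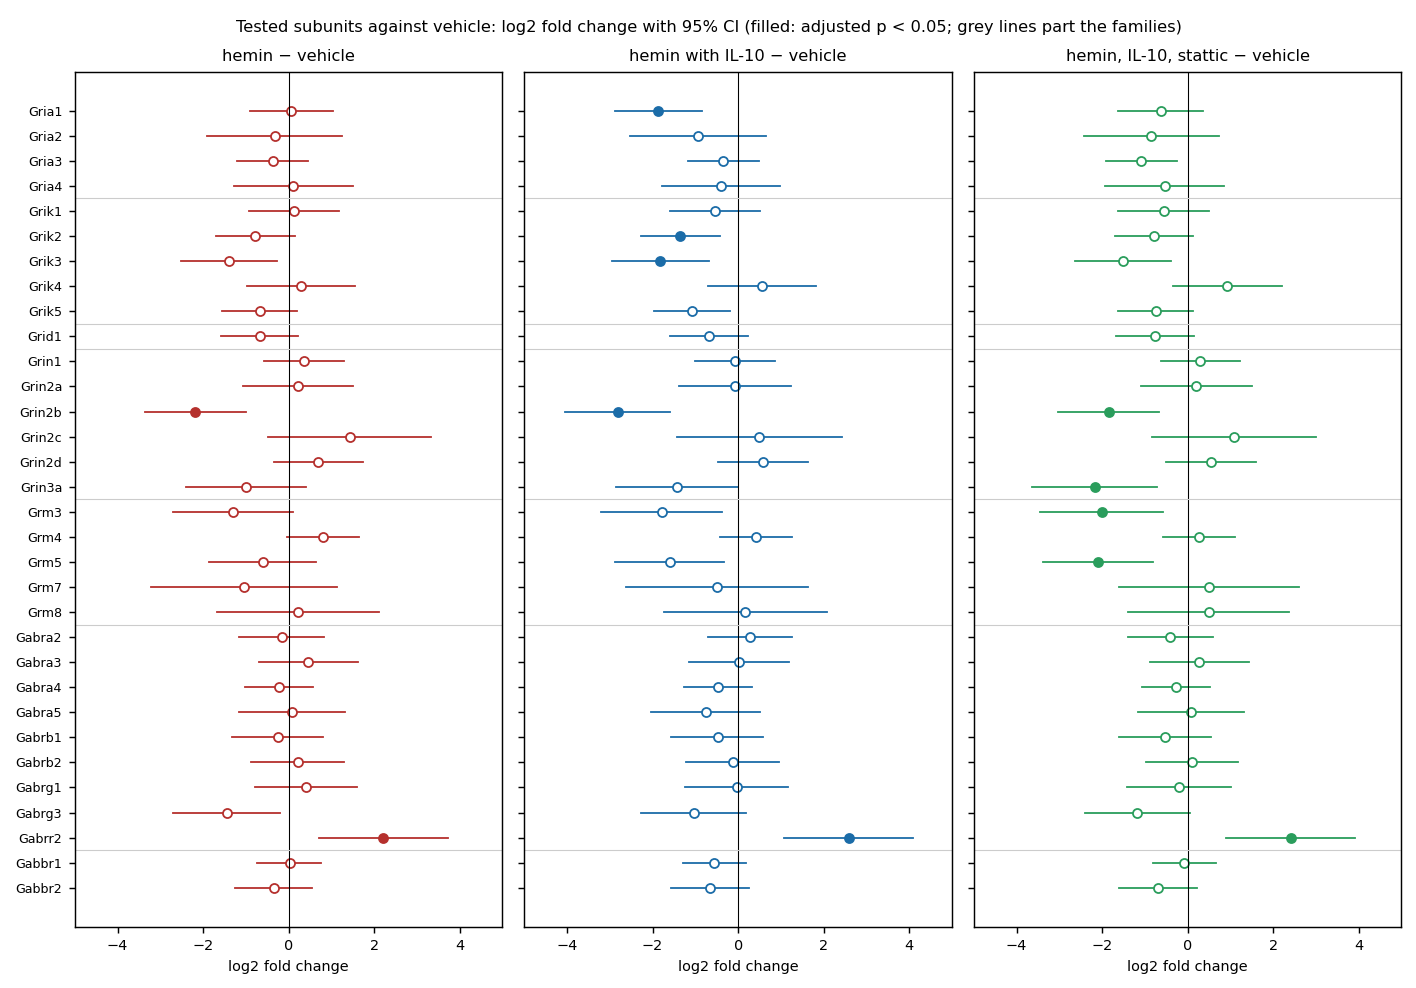
Log2 change against vehicle with its 95% confidence interval for 32 of the 36 tested subunits, in 1 panel for each hemin-treated group, with calls at an adjusted p under 0.05 filled. Grin2b lies lowest among the called subunits with hemin (-2.18) and with IL-10 (-2.82), and Gabrr2 lies highest in all 3 panels (2.21, 2.59 and 2.41).

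AMPA receptors were represented by all 4 subunits. Their summed level was 76.7, 80.3 and 113 FPKM in vehicle replicates 1, 2 and 3, 28.2, 70.1 and 112 with hemin, 21.2, 35.4 and 87.8 with IL-10 and 27.8, 76.4 and 29.5 with stattic. Replicate 1 was lowest in each hemin-treated group, and each of them held a library inside the vehicle range or close to its lower end. Gria2 took 69.8% to 73.9% of the AMPA sum in vehicle and 53.0% to 79.9% in the hemin-treated libraries, so it remained the most abundant AMPA subunit in each of the 12 libraries.

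Gria1 encodes the AMPA subunit best known for activity-dependent insertion into synapses. In CPM, which are counts after scaling for library size by TMM, it stood at 25.4, 15.1 and 7.9 in vehicle, 22.6, 17.3 and 10.6 with hemin, 4.32, 6.11 and 2.83 with IL-10 and 11.5, 12.8 and 6.84 with stattic. All 3 libraries with IL-10 were below every vehicle, hemin and stattic library, and the hemin and vehicle libraries covered much the same range. Against vehicle the log2 change was 0.06 with hemin (SE 0.45, edgeR adjusted p = 0.934), -1.87 with IL-10 (SE 0.47, edgeR adjusted p = 0.0175) and -0.63 with stattic (SE 0.45, edgeR adjusted p = 0.321). Over 23 alternative fits the adjusted p of the fall with IL-10 ran from 0.00126 to 0.0906, and the call was lost without vehicle replicate 1 (0.0906) or IL-10 replicate 1 (0.054).

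The other AMPA subunits were not called in any comparison. Gria2 stood at 338, 384 and 534 CPM in vehicle and 94.7, 324 and 578 CPM with hemin, a log2 change of -0.33 with a 95% confidence interval of -1.91 to 1.24. Hemin replicate 1 was far below all vehicle libraries and hemin replicate 3 above them all. Gria4 ranged from 50.2 to 81.0 CPM in vehicle and from 13.2 to 105 CPM in the hemin-treated libraries. Gria3 was nearest to a call, with stattic, at a log2 change of -1.08 (SE 0.39, edgeR adjusted p = 0.0604), and stattic replicate 2 had its lowest level, 9.22 CPM against 25.2 to 55.0 CPM in vehicle. It was called in DESeq2 (adjusted p = 0.0322), and in edgeR without stattic replicate 1 (-1.49, 0.0222) or with library totals (-1.32, 0.0287).

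Kainate receptors were the second family by summed level, at 68.0, 65.7 and 72.9 FPKM in vehicle. The sums were 24.4, 33.0 and 62.5 with hemin, 19.0, 22.7 and 50.4 with IL-10 and 21.2, 43.9 and 42.0 with stattic. All 9 hemin-treated libraries lay below the 3 vehicle libraries. Of the 5 subunits, Grik2 and Grik3 were called, both with IL-10.

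Grik3, a low-affinity kainate subunit, stood at 209, 195 and 230 CPM in vehicle, 31.2, 71.4 and 139 with hemin, 43.8, 41.0 and 94.5 with IL-10 and 38.9, 114 and 70.0 with stattic. Every hemin-treated library was below every vehicle library. The log2 change against vehicle was -1.39 with hemin (SE 0.52, edgeR adjusted p = 0.0742), -1.82 with IL-10 (SE 0.52, edgeR adjusted p = 0.0291) and -1.51 with stattic (SE 0.52, edgeR adjusted p = 0.0505). The groups did not overlap in any of the 3, while the edgeR test passed with IL-10 alone. DESeq2 and limma-voom also called the difference with hemin (adjusted p = 0.0319 and 0.0437) and with stattic (0.0159 and 0.0396). The difference with hemin was called in 5 of 23 alternatives, among them the fit without hemin replicate 3 (0.0262). The difference with stattic was called in 13 of 23, among them those without hemin replicate 1 (0.0265) or 3 (0.0324), IL-10 replicate 3 (0.0387) or stattic replicate 2 (0.0373). The adjusted p of the edgeR call with IL-10 ran from 0.00193 to 0.113 over the alternatives, and it was lost without any 1 vehicle library (0.059 to 0.0758), without IL-10 replicate 1 (0.0965) or without IL-10 replicate 2 (0.113).

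Grik2, another low-affinity kainate subunit, stood at 53.5, 60.8 and 43.9 CPM in vehicle and 15.1, 17.5 and 29.6 CPM with IL-10. All IL-10 libraries were below all vehicle libraries, and the log2 change was -1.35 (SE 0.43, edgeR adjusted p = 0.043). It was 23.0, 25.7 and 43.7 CPM with hemin, where replicate 3 lay just below the lowest vehicle library, and 17.3, 53.4 and 21.1 CPM with stattic, where replicate 2 lay within the vehicle range and the call was made without it (log2 change -1.46, 0.0223). Over the alternatives the adjusted p of the fall with IL-10 ran from 0.0132 to 0.144. The call was lost without any 1 vehicle library (0.0738 to 0.116), without hemin replicate 2 (0.0597), or without IL-10 replicate 1 (0.135) or 2 (0.144).

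Of the high-affinity subunits, Grik5 stood at 110, 97.6 and 113 CPM in vehicle and 36.9, 43.6 and 71.8 CPM with IL-10, without overlap, at a log2 change of -1.07 (SE 0.41, edgeR adjusted p = 0.0807). It was called in DESeq2 (adjusted p = 0.049), and in edgeR without IL-10 replicate 3 (0.0488) or stattic replicate 3 (0.0343), and the difference with stattic, -0.75, was called as -1.29 without stattic replicate 3 (0.0316). Its annotated gene span overlaps that of Zfp574, and the labels do not say whether the counting used strand. Whether reads of Zfp574 entered the Grik5 counts was not tested. Grik4 went the other way, with log2 changes of 0.29, 0.56 and 0.93 that did not pass the test. Grik1 stood at 2.41 to 9.32 CPM over the 12 libraries and had no call.

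The makeup of the kainate family differed between vehicle and the rest, a pattern picked out after its values were seen and given without a test. Grik3 took 37.7%, 36.9% and 38.6% of the summed kainate FPKM in vehicle and 17.6% to 34.6% in the 9 hemin-treated libraries. Grik4 took 4.35% to 7.24% in vehicle and 8.64% to 24.5% in the hemin-treated libraries. Neither range overlapped, while the share of Grik5 overlapped, at 38.0% to 41.5% in vehicle and 24.9% to 49.7% with hemin. Grik3 has the longest transcript of the family (7936 bases) and Grik4 the shortest (3465 bases). Over the longest 20% of tested genes, the median log2 difference from vehicle was -0.86 to -0.09 in the 9 hemin-treated libraries. The part of transcript length in these shares was not tested.

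**Figure D3:**
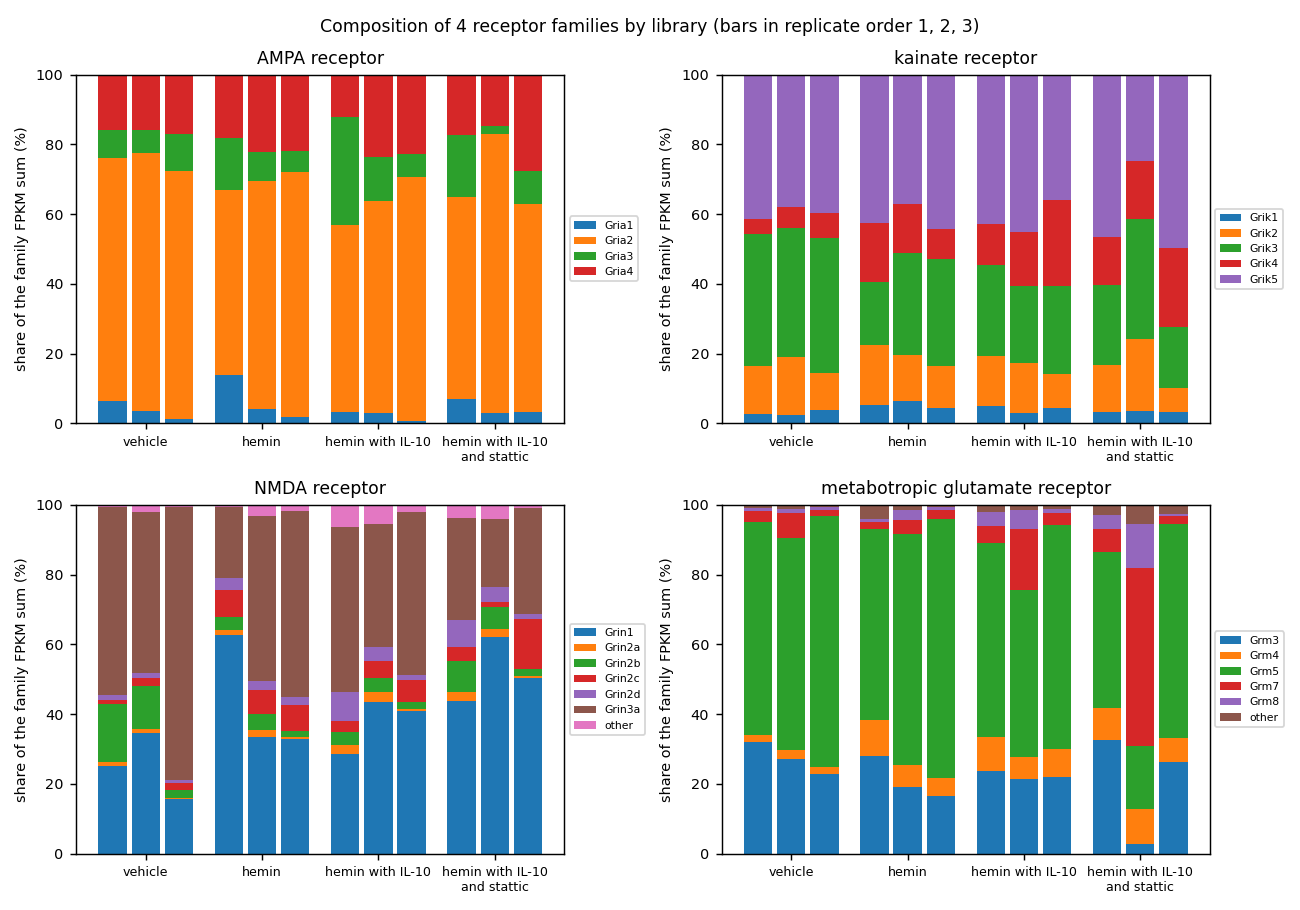
Share of each subunit in the summed FPKM of its receptor family, with untested subunits joined as other, 1 bar for each of the 12 libraries, for 4 families. In the kainate panel the Grik3 share is 36.9% to 38.6% in vehicle and at most 34.6% in the hemin-treated libraries, and in the metabotropic panel Grm7 takes 50.9% in stattic replicate 2.

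The delta receptor gene Grid1 had no call. Grid1, whose protein links synapses through secreted adaptors, stood at 34.8 to 60.6 CPM in vehicle and 17.6 to 43.7 CPM in the hemin-treated libraries, with log2 changes of -0.68, -0.68 and -0.77 and overlapping groups.

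NMDA receptor transcripts were lower in sum than AMPA and kainate transcripts, at 13.2, 10.1 and 23.1 FPKM in vehicle, 7.02, 9.36 and 14.7 with hemin, 4.51, 5.25 and 13.2 with IL-10 and 5.79, 6.79 and 8.11 with stattic. The stattic libraries were all below vehicle, while the hemin and IL-10 groups each reached its range. The test covered 6 of the 7 subunits. Grin3a, a subunit that lowers calcium entry, took 46.2% to 78.3% of the sum, and Grin1 took 15.6% to 34.7%. With stattic the Grin3a share was 19.4% to 30.2% and the Grin1 share 43.7% to 62.0%, neither overlapping vehicle. These shares were picked out after their values were seen. The Grin3a transcript is longer (7540 bases) than that of Grin1 (4151 bases), and the part of transcript length in the shares was not tested.

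Grin2b, the NMDA subunit that predominates early in development, stood at 48.5, 27.6 and 12.8 CPM in vehicle, 6.05, 8.81 and 4.71 with hemin, 3.67, 4.74 and 4.14 with IL-10 and 13.1, 8.69 and 2.88 with stattic. All hemin and IL-10 libraries were below all vehicle libraries, while stattic replicate 1 was just above vehicle replicate 3. The log2 change was -2.18 with hemin (SE 0.55, edgeR adjusted p = 0.0168), -2.82 with IL-10 (SE 0.57, edgeR adjusted p = 0.00635) and -1.84 with stattic (SE 0.54, edgeR adjusted p = 0.0283). With IL-10 the call was made in each of the 23 alternative fits (adjusted p 9.21e-06 to 0.0348). With hemin the adjusted p ran from 0.000737 to 0.082 and the call did not hold when vehicle replicate 1 (0.082), hemin replicate 1 (0.0514) or hemin replicate 3 (0.055) was left out. With stattic it ran from 0.0045 to 0.142 and the call was lost without vehicle replicate 1 (0.142) or 2 (0.0622), without stattic replicate 2 (0.0626) or 3 (0.0519), with only the 2 groups compared (0.0894) and without hemin replicate 1 and stattic replicate 3 together (0.0609). The 3 vehicle libraries differed widely in Grin2b, and the sum of 10 astrocyte markers fell in the same order in them, at 6455, 5247 and 2389 CPM. Much of that fall came from Gfap, at 2556, 2150 and 36.4 CPM. Aqp4, Aldh1l1, Slc1a2, Slc1a3 and Aldoc also fell in this order, while Sox9, Fgfr3, S100b and Gjb6 did not. The astrocyte sum was 1965 to 2835 CPM with hemin, 905 to 2381 with IL-10 and 1093 to 3669 with stattic, and its part in the Grin2b result was not tested.

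Grin3a stood at 48.5, 32.2 and 125 CPM in vehicle and 13.0, 10.1 and 22.7 CPM with stattic. The groups did not overlap, and vehicle replicate 3 was far above the other vehicle libraries. The log2 change was -2.17 (SE 0.67, edgeR adjusted p = 0.0348), against -1.0 (SE 0.64, edgeR adjusted p = 0.29) with hemin and -1.43 (SE 0.65, edgeR adjusted p = 0.138) with IL-10. Over the alternatives the adjusted p with stattic ran from 0.00256 to 0.155. The call was lost without vehicle replicate 1 (0.0577) or 3 (0.155), without stattic replicate 1 (0.0749) or 2 (0.098), in limma-voom (0.0522) and after a correction for transcript length (0.107). Without vehicle replicate 3 the log2 change was -1.41. Ppp3r2 lies within the Grin3a gene, with at most 22 counts in a library.

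Grin1 stood at 12.6 to 13.5 CPM in vehicle and 5.5 to 22.1 CPM elsewhere, overlapping in each comparison, with log2 changes of 0.36, -0.07 and 0.3. Grin2a, the NMDA subunit of mature neurons, Grin2c and Grin2d were low, at 0.419 to 6.96 CPM over all libraries. Grin2c and Grin2d did not overlap vehicle with hemin and were higher there, at log2 changes of 1.43 (SE 0.87, edgeR adjusted p = 0.267) and 0.69 (SE 0.48, edgeR adjusted p = 0.33).

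Among metabotropic glutamate receptors, 5 of the 8 genes were tested, and Grm5 and Grm3 made up most of the family. Grm5, which signals through calcium release, took 60.8% to 71.9% of the summed FPKM in vehicle, and Grm3, which inhibits cAMP formation, took 22.8% to 32.0%. The family sum was 49.6, 30.2 and 34.7 FPKM in vehicle, 9.67, 20.6 and 32.5 with hemin, 11.0, 11.2 and 15.6 with IL-10 and 9.1, 8.88 and 12.1 with stattic. All IL-10 and stattic libraries were below vehicle, and hemin replicate 3 lay within the vehicle range.

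Grm5 stood at 225, 133 and 190 CPM in vehicle, 46.2, 119 and 194 with hemin, 51.1, 45.7 and 83.6 with IL-10 and 35.9, 13.7 and 79.0 with stattic. With hemin, replicate 3 lay within the vehicle range and the other 2 libraries below it, and the IL-10 and stattic libraries were all below vehicle. The log2 change was -0.61 with hemin (SE 0.57, edgeR adjusted p = 0.48), -1.6 with IL-10 (SE 0.59, edgeR adjusted p = 0.0702) and -2.09 with stattic (SE 0.6, edgeR adjusted p = 0.0249). The difference with IL-10 was called in DESeq2 (adjusted p = 0.0247), and in edgeR without hemin replicate 1 (0.0444) or stattic replicate 2 (0.0347) or 3 (0.0356). Over the alternatives the adjusted p with stattic ran from 0.00189 to 0.143. The call was lost without vehicle replicate 1 (0.0746) or 3 (0.0603), without stattic replicate 1 (0.0578) or 2 (0.0571), and after the length correction, which gave a log2 change of -1.41 (0.143). Without stattic replicate 3 the change was -2.88.

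Grm3 stood at 50.9, 26.4 and 25.3 CPM in vehicle, 9.62, 14.0 and 17.7 with hemin, 9.5, 8.32 and 11.8 with IL-10 and 10.8, 0.838 and 13.9 with stattic. Every hemin-treated library was below every vehicle library, with stattic replicate 2 near 0. The log2 change was -1.31 with hemin (SE 0.64, edgeR adjusted p = 0.167), -1.79 with IL-10 (SE 0.65, edgeR adjusted p = 0.0699) and -2.01 with stattic (SE 0.66, edgeR adjusted p = 0.0436). Leaving out stattic replicate 2 gave log2 changes of -1.32 (0.0181) with hemin, -1.79 (0.00532) with IL-10 and -1.47 (0.0257) with stattic, so all 3 were called without it. DESeq2 called the difference with IL-10 with all libraries in (adjusted p = 0.0242). With all libraries the stattic call was lost in 8 of the 12 fits that left out 1 library: any 1 vehicle library (0.0677 to 0.15), hemin replicate 2 (0.0566) or 3 (0.052), IL-10 replicate 1 (0.0534) or 2 (0.0566), and stattic replicate 1 (0.0561). It was also lost after the length correction (0.0533) and with only the 2 groups compared (0.124), and over all alternatives the adjusted p ran from 0.00762 to 0.15.

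Stattic replicate 2 stood apart in this family. Grm7 was at 21.7 CPM there, against 0.694 to 9.05 CPM in the other 11 libraries, and took 50.9% of the family's FPKM against at most 17.4% elsewhere. The same library had the lowest Grm5, Grm3 and Gria3 levels of all 12 and an oligodendrocyte lineage marker sum of 12211 CPM, against 3311 and 6135 in the other stattic libraries. Grm7 had no call, with a log2 change of 0.5 with stattic (95% confidence interval -1.6 to 2.6), and its gene overlaps Gm20387. Grm4 was higher with hemin in all 3 libraries (3.47, 4.71 and 6.51 CPM) than in vehicle (2.57 to 3.15 CPM), at a log2 change of 0.81 (SE 0.39, edgeR adjusted p = 0.155), and Grm8 stayed at 0.198 to 2.83 CPM over all libraries.

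Of the 18 GABA-A receptor subunits, 12 were tested. Gabrg1, a gamma subunit typical of glia, took 17.0% to 30.2% of the family's summed FPKM in vehicle. Alpha subunits, which are needed for the GABA site, were low. Gabra2, Gabra3, Gabra4 and Gabra5 each stayed at or below 6.72 CPM in all 12 libraries, and none was called.

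Gabrr2, a rho subunit known from the retina, was the only subunit that rose. It stood at 0, 0.548 and 0.381 CPM in vehicle, 1.09, 1.54 and 1.8 with hemin, 2.05, 2.21 and 1.51 with IL-10 and 1.68, 2.09 and 1.32 with stattic. All 9 hemin-treated libraries were above all 3 vehicle libraries, yet the counts behind this were few, 0, 6 and 4 in vehicle and 11, 15 and 18 with hemin. The log2 change was 2.21 with hemin (SE 0.69, edgeR adjusted p = 0.0412), 2.59 with IL-10 (SE 0.69, edgeR adjusted p = 0.0222) and 2.41 with stattic (SE 0.69, edgeR adjusted p = 0.0262). At this depth the hemin call was kept in 4 of the 12 fits that left out 1 library. It was lost without any 1 vehicle (0.0517 to 0.097) or hemin library (0.0559 to 0.109) or IL-10 replicate 1 (0.056) or 2 (0.0661), with library totals (0.0539), no filter (0.0513) or only the 2 groups (0.0615), and after the length correction (0.0701), and ran from 0.0093 to 0.109 over all alternatives. The IL-10 call (0.00159 to 0.0737) was lost without vehicle replicate 3 (0.0627) or IL-10 replicate 1 (0.0562) or 2 (0.0737). The stattic call (0.00361 to 0.0787) was lost without vehicle replicate 1 (0.0549) or 3 (0.0699) or stattic replicate 2 (0.0651), with only the 2 groups compared (0.0787) and after the length correction (0.0585). Without vehicle replicate 2 the log2 changes were 2.88, 3.28 and 3.09. The 3 tested genes whose log2 CPM followed Gabrr2 most closely over the 12 libraries were Zrsr2 (Pearson r = 0.98), Irf5 (0.96) and C77080 (0.96), all 12 libraries sharing the split into vehicle and hemin-treated cells.

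**Figure D4:**
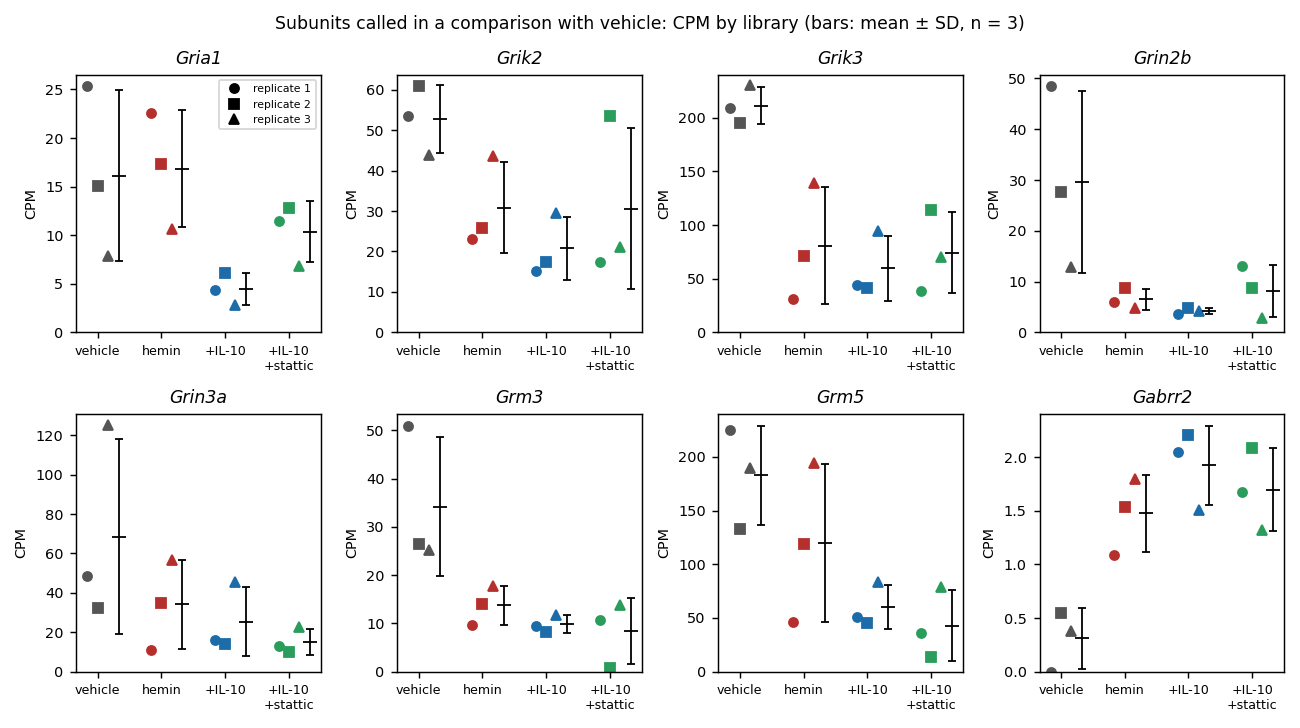
CPM of the 8 subunits called in at least 1 comparison with vehicle, 1 point for each of the 12 libraries, the marker shape giving the replicate number, and bars for the mean ± SD of each group (n = 3), on separate linear axes. All 9 hemin-treated libraries lie above vehicle for Gabrr2 and below vehicle for Grik3 and Grm3.

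The remaining GABA-A subunits had no call. Gabrg3 stood at 4.45 to 8.41 CPM in vehicle and 1.2 to 3.07 CPM with hemin, without overlap, at a log2 change of -1.45 (SE 0.57, edgeR adjusted p = 0.0909, and 0.038 without stattic replicate 3), and was called in DESeq2 (adjusted p = 0.0482). Gabrg1 stood at 13.9 to 30.8 CPM in vehicle and 9.06 to 40.1 CPM elsewhere, with log2 changes of 0.41, -0.03 and -0.2. The annotated gene spans of Gabra4 and Gabrb1 overlap, and whether their exons do was not checked.

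GABA-B receptors need both subunits at the cell surface, Gabbr1 to bind GABA and Gabbr2 to couple to G proteins. Gabbr1 stood at 161, 196 and 87.5 CPM in vehicle, 209, 110 and 131 with hemin, 107, 96.9 and 98.6 with IL-10 and 133, 93.7 and 195 with stattic, and its log2 changes of 0.02, -0.56 and -0.08 were not called. Its FPKM was 5.79 to 22.0 times that of Gabbr2 in vehicle and 7.47 to 27.1 times in the hemin-treated libraries. Gabbr2 stood at 10.1 to 16.1 CPM in vehicle and 4.42 to 14.5 CPM elsewhere, with no call, though without IL-10 replicate 3 the difference with IL-10 was called (-1.31, 0.0336). The 10 subunits that did not reach the count minimum, among them Grin3b, Grm2, Grm6, Gabrd, Gabre, Gabrp, Gabrq, Gabrr1 and Gabrr3, were each at or below 1.68 CPM in all 12 libraries.

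IL-10 added to hemin, compared with hemin alone, changed no subunit past the adjusted threshold. The edgeR quasi-likelihood test called 0 of 36 subunits and 0.0% of all tested genes, with 2 subunits at an unadjusted p under 0.05, beside 2.41% of all genes. DESeq2, limma-voom and the fit with replicate number as a block also called 0 subunits, with 2 at an unadjusted p under 0.05 in each. The groups did not overlap for 3 subunits, among them Gria1 and Gabbr1, all lower with IL-10, beside 8.68% of all tested genes without overlap. Gria1 had a log2 change of -1.93 (95% confidence interval -2.96 to -0.9, unadjusted p = 0.00145, edgeR adjusted p = 0.999, and 0.272 with replicate numbers as a block). Gabbr1 had a log2 change of -0.57. Of the 36 subunits, 28 had a log2 change below 0, beside 50.8% of all tested genes, and the median was -0.39, against -0.01 over all tested genes.

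Stattic added to hemin and IL-10 also changed no subunit past the adjusted threshold. The edgeR test called 0 of 36 subunits and 0.0% of all genes, with 2 subunits at an unadjusted p under 0.05, beside 3.74% of all genes. DESeq2 and limma-voom called 0 as well, with 2 and 1 at an unadjusted p under 0.05. In the edgeR test 1 of them was Gria1, at a log2 change of 1.23 (unadjusted p = 0.0215). For Gria1 all stattic libraries were above all IL-10 libraries, the only subunit without overlap in this comparison, beside 5.36% of all tested genes. Both comparisons use the same IL-10 libraries, so a low value in them moves the 2 differences in opposite directions. Of the 36 subunits, 15 had a log2 change below 0, beside 48.0% of all tested genes, and the median was 0.12 against 0.02.

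**Figure D5:**
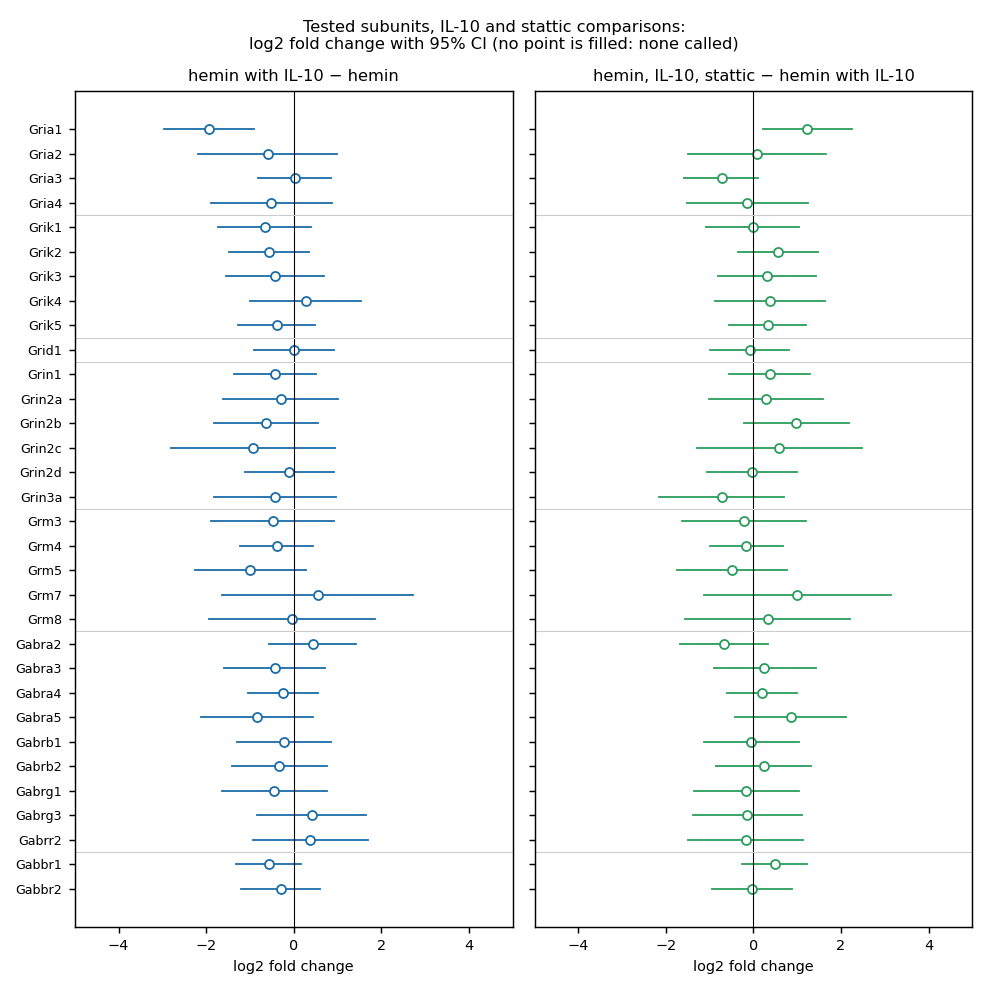
Log2 change with its 95% confidence interval for 32 of the 36 tested subunits, for IL-10 added to hemin and for stattic added to hemin with IL-10. No subunit is called in either panel. Gria1 stands at -1.93 and 1.23, and the 2 panels share the IL-10 libraries.

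Genes that act with these receptors were taken as 4 lists, with 75 genes tested. The first list held AMPA and kainate auxiliary subunits and related proteins that are not subunits, such as Nptx2. Among its 18 tested genes, 2 rose and 1 fell with hemin, beside 11.7% and 9.15% of all tested genes. Their median log2 change was -0.18. Nptx2, a secreted protein that clusters AMPA receptors, rose from 9.12 ± 3.8 to 102 ± 54.9 CPM (SD, n = 3), a log2 change of 3.49 (SE 0.56, edgeR adjusted p = 0.00214). Cnih1, of the cornichon family that guides membrane proteins out of the endoplasmic reticulum, rose by 0.75 on the log2 scale (edgeR adjusted p = 0.0167), and Shisa6 fell by 1.17 (edgeR adjusted p = 0.0298). Shisa7 stood at 34.6 ± 6.92 CPM in vehicle and 11.7 ± 6.54 with hemin, without overlap, at -1.57 (edgeR adjusted p = 0.093). With IL-10 the counts were 2 higher (Nptx2, Cnih1) and 0 lower, beside 12.1% and 8.81% of all tested genes. With stattic they were 2 higher and 2 lower, beside 14.7% and 10.2%, the lower being Shisa6 and Cacng8.

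Among 25 receptor scaffolds and anchors, 1 rose and 4 fell with hemin, beside 11.7% and 9.15% of all tested genes, with a median log2 change of -0.19. In either direction 5 of 25 were called, near the 20.9% of all tested genes. Arc, an immediate early gene whose protein drives AMPA receptor removal from synapses, rose from 10.2 ± 6.43 to 295 ± 84.4 CPM (SD, n = 3), a log2 change of 4.85 (SE 0.66, edgeR adjusted p = 0.000964). Nlgn2, an adhesion protein of inhibitory synapses, fell from 220 ± 28.7 to 68.8 ± 17.4 CPM, a log2 change of -1.67 (SE 0.29, edgeR adjusted p = 0.00315). Lhfpl4, which holds GABA-A receptors at inhibitory synapses, fell by 1.37, and the excitatory scaffolds Shank2 and Shank3 fell by 1.02 and 0.81 on the log2 scale (edgeR adjusted p = 0.0192, 0.0141 and 0.0406). Shank3 was named after its value was seen. With IL-10, 2 rose (Arc at 4.4 and Gabarapl1 at 1.27) and 5 fell (Nlgn2 at -1.72, Lhfpl4, Shank1, Shank2 and Shank3), beside 21.0% of all tested genes called in either direction. With stattic, 3 rose (Arc at 4.18, Gabarapl1 and Gabarap) and 6 fell, Dlg3 in addition to the same 5, beside 24.9%. Shank1, Dlg3 and the other genes outside the naming rule were also named after their values were seen.

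Among 19 genes of glutamate uptake, release and metabolism, 4 rose and 1 fell with hemin, beside 11.7% and 9.15% of all tested genes, with a median log2 change of 0.5. Slc7a11, which exports glutamate in exchange for cystine, rose from 20.8 ± 9.26 to 544 ± 382 CPM (SD, n = 3), a log2 change of 4.71 (SE 1.13, edgeR adjusted p = 0.0139). Slc1a5, a glutamine transporter, rose by 1.2, Got1, an aspartate aminotransferase, by 1.1 and Slc17a7, a vesicular glutamate transporter at only 0.434 ± 0.428 CPM in vehicle, by 2.42 on the log2 scale (edgeR adjusted p = 0.0142, 0.0316 and 0.028). Slc1a2, the main glutamate uptake carrier of astrocytes and also one of the 10 astrocyte markers, fell from 281 ± 125 to 79.6 ± 14.1 CPM, a log2 change of -1.82 (edgeR adjusted p = 0.0355), and was named after its value was seen. The same 4 genes rose and Slc1a2 fell with IL-10 and with stattic, and Slc38a2 also rose with IL-10, beside 21.0% and 24.9% of all tested genes called in either direction.

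Among 13 tested genes of GABA synthesis, uptake and chloride transport, edgeR called 0 with hemin, beside 20.9% of all tested genes. In edgeR 4 of them were at an unadjusted p under 0.05, beside 4945 of all 13967 tested genes. DESeq2 called 2, beside 4070 of all 18876 listed genes, and limma-voom 0, beside 2809 of 13967 tested genes. Among the 4 smallest p-values were those of Aldh5a1 (log2 change -0.94, edgeR adjusted p = 0.0593), the chloride transporter Slc12a5 (-1.0, 0.133) and the GABA transaminase Abat (-0.77, 0.076). With IL-10, 3 fell, among them Abat (-1.03) and Slc12a5 (-1.92), beside 8.81% of all tested genes called lower, and with stattic 4 fell, among them Abat (-0.91) and Aldh5a1 (-1.16), beside 10.2%. None rose. No gene of the 4 lists was called between IL-10 and hemin or between stattic and IL-10 in edgeR, DESeq2 or limma-voom. At an unadjusted p under 0.05 were 4, 4 and 2 of 75 in the first and 3, 4 and 2 in the second. In edgeR 2.41% and 3.74% of all tested genes were at such a p.

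Libraries held 9404448 to 10266653 counts. Vehicle libraries listed 15051 to 15369 genes and hemin-treated libraries 16022 to 16899, without overlap. A sum of 12 oligodendrocyte lineage markers was 9458 to 10930 CPM in vehicle, all 12 detected, and 2546 to 5387 CPM with hemin, 2500 to 4544 with IL-10 and 3311 to 12211 with stattic, and 4, 7 and 5 of the 11 tested markers fell, beside 9.15%, 8.81% and 10.2% of all tested genes. A sum of 13 neuronal markers was 1269 to 1471 CPM in vehicle and 977 to 1600 elsewhere, and in vehicle 717 to 1011 CPM of it came from Map2. Of these 13 markers 4 rose and 2 fell with hemin, beside 11.7% and 9.15% of all tested genes. With IL-10, 3 rose and 2 fell, beside 12.1% and 8.81%, and with stattic 3 rose and 1 fell, beside 14.7% and 10.2%. The neurofilament gene Nefm rose from 8.6 ± 3.1 to 272 ± 72.9 CPM with hemin (SD, n = 3), a log2 change of 4.98 (edgeR adjusted p = 7.12e-05), Nefl rose by 2.77, and Dcx and Elavl3 fell by 1.71 and 1.84 on the log2 scale. Microglia and macrophage markers (14 genes) summed to 9.24 to 37.8 CPM in vehicle and 27.8 to 189 elsewhere, and fibroblast and vascular markers (11 genes) to 10.8 to 26.3 and 28.6 to 413 CPM. With hemin, IL-10 and stattic, 5, 1 and 7 of the 13 tested microglia and macrophage markers rose and 6, 2 and 4 of the 10 tested fibroblast and vascular markers, beside 11.7%, 12.1% and 14.7% of all tested genes, and none of either list fell. Of the 9 tested astrocyte markers 1, Slc1a2, fell in each comparison, beside 9.15%, 8.81% and 10.2% of all tested genes, and none rose. Of these 4 lists all genes had counts in each group, and of the astrocyte list 1 had none with hemin. The part of these cell types in the subunit results was not tested, and in bulk RNA fewer cells of a type and less RNA per cell cannot be told apart. Tested subunits had long transcripts, with a median of 4843 bases against 3143 over all tested genes and 15 of 36 among the longest 20% of tested genes, and that class was lower than in vehicle in stattic replicate 3 (median log2 difference -0.86) and hemin replicate 1 (-0.46). Against vehicle the median of the subunits was lowest in IL-10 replicate 1 (-1.0), followed by stattic replicate 3 (-0.67) and hemin replicate 1 (-0.65).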

How the data were processed

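The 12 libraries were made from total RNA with dUTP in the second strand, per the labels' protocols. Tools in the submitters' processing notes are Bowtie, Bowtie2, CASAVA, Cufflinks, HISAT, RSEM, StringTie and TopHat, without versions or roles, and the sources used here give no build. Per the file headers, the deposited files hold an expected count, an estimated number of reads that need not be whole, and an FPKM value for each gene. Genes that a file does not list were set to 0 in it. Expected counts were rounded and tested with edgeR 4.0.16 in R 4.3.3 (filterByExpr, TMM scaling, robust quasi-likelihood fit of all 12 libraries with 1 mean per group). An adjusted p (Benjamini-Hochberg over 13967 genes) under 0.05 was a call.

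Alternatives used DESeq2 1.42.0, limma-voom (limma 3.58.1), limma on log2(FPKM + 1) and log2(FPKM + 0.1), library totals in place of TMM, no filter, only the 2 groups compared, the replicate number as a block, loess offsets for transcript length, and leaving out libraries. In simulated counts for hemin against vehicle (13787 genes), 100 genes were changed 2-fold and 100 were changed 4-fold. The edgeR fit recovered 14% of the 2-fold and 81% of the 4-fold changes. Far more genes, 2917 of 13967, were called in the data, so these shares need not hold there. The members, lists and naming rules were chosen with earlier results of these data known. The rule named each subunit, and up to 4 genes per pathway list with the smallest adjusted p with hemin. Some genes that it names are not reported here. For the called subunit with the largest change with hemin, it named the 3 genes most alike by Pearson correlation. The meaning of shared replicate numbers is not given in the labels. Deviations of same-numbered libraries correlated at 0.374, 0.17 and 0.61 between IL-10 and hemin, and at 0.64, -0.046 and 0.479 between stattic and IL-10. In the 3 comparisons with vehicle the correlations ran from 0.045 to 0.369. The main fit used no pairing in any comparison, and the replicate block was an alternative fit only. No counting with or without strand is stated, so overlapping genes could not be told apart.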

Additional observations from a re-analysis of the deposited data

How the results depend on the processing

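No subunit difference reversed as a call: of 4130 refitted differences, 3982 kept their side of the threshold, 262 of them with a change of sign while called in neither fit, and 63 lost and 85 gained a call. Between IL-10 and hemin and between stattic and IL-10, 0 subunits were called in any fit. With hemin, 1 subunit was called higher, and 0 with library totals, with no filter, with only the 2 groups or after the length correction (0 to 1 without 1 library). The number called lower was 1, but 3 with DESeq2, 2 with limma-voom, 3 with only the 2 groups, and 0 to 2 without 1 library. With IL-10, 1 was called higher (0 to 1 without 1 library) and 4 lower, but 8 with DESeq2, 8 with only the 2 groups, 7 without hemin replicate 1 and stattic replicate 3 together, and 1 to 7 without 1 library. With stattic, 1 was called higher, but 0 with only the 2 groups or after the length correction (0 to 1 without 1 library), and 4 lower, but 6 with DESeq2, library totals or limma on log2 FPKM, 1 after the length correction and 0 to 5 without 1 library. The cause of these differences was not tested. DESeq2 also called more of all genes in either direction, 4070 with hemin, 4039 with IL-10 and 4575 with stattic. Its base is the 18876 genes listed in any library, including any without an adjusted p, so shares are not directly comparable. The main edgeR fit called 2917, 2927 and 3472 of 13967. Library totals shifted the median log2 change of all genes by -0.1 with hemin, -0.13 with IL-10 and -0.23 with stattic.

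With a replicate block, the subunits called lower than vehicle were 5, 10 and 9 with hemin, IL-10 and stattic. With the length correction as well they were 5, 11 and 7. In either direction the block alone called 6, 11 and 10 of 36 subunits, from 2, 5 and 5. Over all 13967 tested genes it also raised the calls, to 4000, 3929 and 4422 from 2917, 2927 and 3472. In these comparisons the deviations of same-numbered libraries correlated positively for each replicate number, at 0.045 to 0.369. Whether same-numbered libraries had a common source was not tested. Between IL-10 and hemin, the block changed no subunit's call.

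The depth limits Gabrr2 most, since it rests on 0 to 6 counts per vehicle library. With 3 libraries a group, the simulated fit recovered 14% of 2-fold changes, a share that need not hold for the data.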
